A study of Rattus norvegicus with 6 samples.

Results

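The secreted Wnt antagonists are extracellular proteins that keep Wnt ligands from their receptors. The 10 genes followed here, Sfrp1, Sfrp2, Sfrp4, Sfrp5, Frzb, Dkk1, Dkk2, Dkk3, Wif1 and Sostdc1, were chosen by name from the Sfrp, Frzb, Dkk, Wif1 and Sost families, with earlier results of the same RA against CON comparison known. Their differences between RA and CON are therefore given as a description, and no p-value is attached to them. Of the 10 names, 9 had a row among the 18923 genes measured, and Dkk1 was not analysed here. The samples were primary chondrocytes from cartilage of 24-h-old female wild-type Sprague-Dawley rats at passage 1 or 2, with 3 samples per group. The RA group received 1 µM all-trans retinoic acid, the active acid form of vitamin A, for 24 h in high-glucose medium with serum, penicillin and streptomycin, and the CON group had the same medium for 24 h without it. The labels name no vehicle for CON. The study's methods call its replicates biologically independent and do not say whether each came from a separate animal, so the spread given below is that between samples.

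Wnt proteins bind Frizzled receptors together with the co-receptors LRP5 and LRP6, and in the canonical branch this stabilises β-catenin. Secreted frizzled-related proteins (the Sfrp genes and Frzb) carry a cysteine-rich domain like that of Frizzled, and Wif1 a different Wnt-binding domain, so both kinds bind the ligand itself. Dickkopf proteins (Dkk) and the sclerostin-related protein Sostdc1 act mainly on LRP co-receptors, and Sostdc1 also binds bone morphogenetic proteins. In cartilage, Wnt signalling shapes chondrocyte differentiation and hypertrophy, and Frzb has long been studied as a protector of articular cartilage.

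Total counts ran from 30170909 to 38007486 in CON and from 29370025 to 30952882 in RA. Sample 1 of CON stood apart from the other samples of its group. Its counts differed from those of CON samples 2 and 3 with a chi-square per degree of freedom of 39.9 and 64.2, while the remaining pairs within a group gave 6.47 to 8.20, and the test was repeated without it. The treatment was visible in retinoid response genes, of which 6 of 8 were differentially expressed genes (DEGs) and higher in RA. Cyp26a1, which encodes an RA-degrading hydroxylase, stood at 3.35 on the log2 scale, RA over CON (SE 0.276, adjusted p = 0.000213, edgeR), and Rarb, an RA receptor gene, at 1.43 (SE 0.376, adjusted p = 0.0493, edgeR, range over alternatives 0.00367 to 0.197). Rarb kept the call without CON sample 1 (1.85) and lost it without CON sample 2 (1.40) or 3 (1.12) and without RA sample 1 (1.52), 2 (1.54) or 3 (1.19). A gene counted as a DEG when edgeR's quasi-likelihood test over 13438 genes gave an adjusted p (Benjamini-Hochberg) under 0.05 and its log2 fold change exceeded 0.58 in size. Of all genes tested, 4.96% were DEGs, 2.29% lower and 2.67% higher in RA.

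Among the members called DEGs, RefSeq promoter sequence was at hand for Sfrp2 and Frzb, and both are printed to show how unlike these promoters are. The sequences are of build GRCr8, from 5′ to 3′ on the strand of the gene, and capitals mark CG dinucleotides. For Frzb, the annotated gene reaches beyond the start that the promoter window uses, and only the 178 bases outside it are shown.
Sfrp2, chr2:171387286-171387535, + strand: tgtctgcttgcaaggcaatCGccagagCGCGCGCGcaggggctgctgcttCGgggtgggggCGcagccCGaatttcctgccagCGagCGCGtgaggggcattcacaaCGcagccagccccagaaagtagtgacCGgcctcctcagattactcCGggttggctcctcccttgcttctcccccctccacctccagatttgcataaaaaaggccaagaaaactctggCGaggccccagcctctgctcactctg
Frzb, chr3:85772169-85772346, - strand: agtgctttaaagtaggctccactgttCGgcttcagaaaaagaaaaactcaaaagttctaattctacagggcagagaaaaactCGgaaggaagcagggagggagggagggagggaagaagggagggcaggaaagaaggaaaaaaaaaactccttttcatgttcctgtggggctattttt
Over the full 250 bases before the start, Sfrp2 had 15 CG dinucleotides and a GC content of 62.4%, and Frzb had 3 and 43.6%. The median over 27457 promoters of the table was 6 CG dinucleotides and 52% GC, so Sfrp2 lay above it and Frzb below. Of the other members with a row in the files and a promoter entry, Wif1 had 27 CG dinucleotides and 68% GC, and Sfrp5 had 12 and 58%. Retinoid receptors bind pairs of hexamers, and 4 such hexamers were searched on both strands of the 250 bases. AGGTCA is held by 13.7% of all promoters of the table, AGTTCA by 12.1%, GGGTCA by 11.8%, GGTTCA by 9.62%, and any of them by 38.5%. AGGTCA was found 42 bases before the start of Frzb, in the part of the window inside the annotated gene and outside the bases printed above. GGGTCA was found 78 bases before the start of Sfrp5, and none of the 4 hexamers in Sfrp2 or Wif1. The entry of Dkk1, which had no row, is not described here. The presence or absence of these letters in the window is a description and says nothing of binding.

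In CON, the level per length of gene (FPKM, the count divided by gene length and sample total) differed widely among the members. Frzb was the most abundant, at 38.9 ± 0.58 FPKM (SD, n = 3), followed by Sfrp4 at 11.04 ± 0.194, Wif1 at 8.59 ± 0.622 and Sfrp2 at 6.88 ± 0.676 (SD, n = 3 each). Dkk3, at 2.69 ± 0.226, Sfrp1, at 1.38 ± 0.255, and Sostdc1, at 0.369 ± 0.0914 FPKM, stood lower (SD, n = 3 each). No neighbours in this order overlapped between samples, apart from Dkk2 and Sfrp5 at the bottom. Dkk2 had counts of 4, 0 and 0 in CON and 1, 2 and 2 in RA. Sfrp5 had a count of 0 in all 6 samples, which allows up to 3 counts, or 0.0789 to 0.102 CPM (the count scaled to the sample total), and covers counting error only. The counts of these last 2 genes were too low for the test, and nothing can be said of them beyond this floor.

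**Figure D1:**
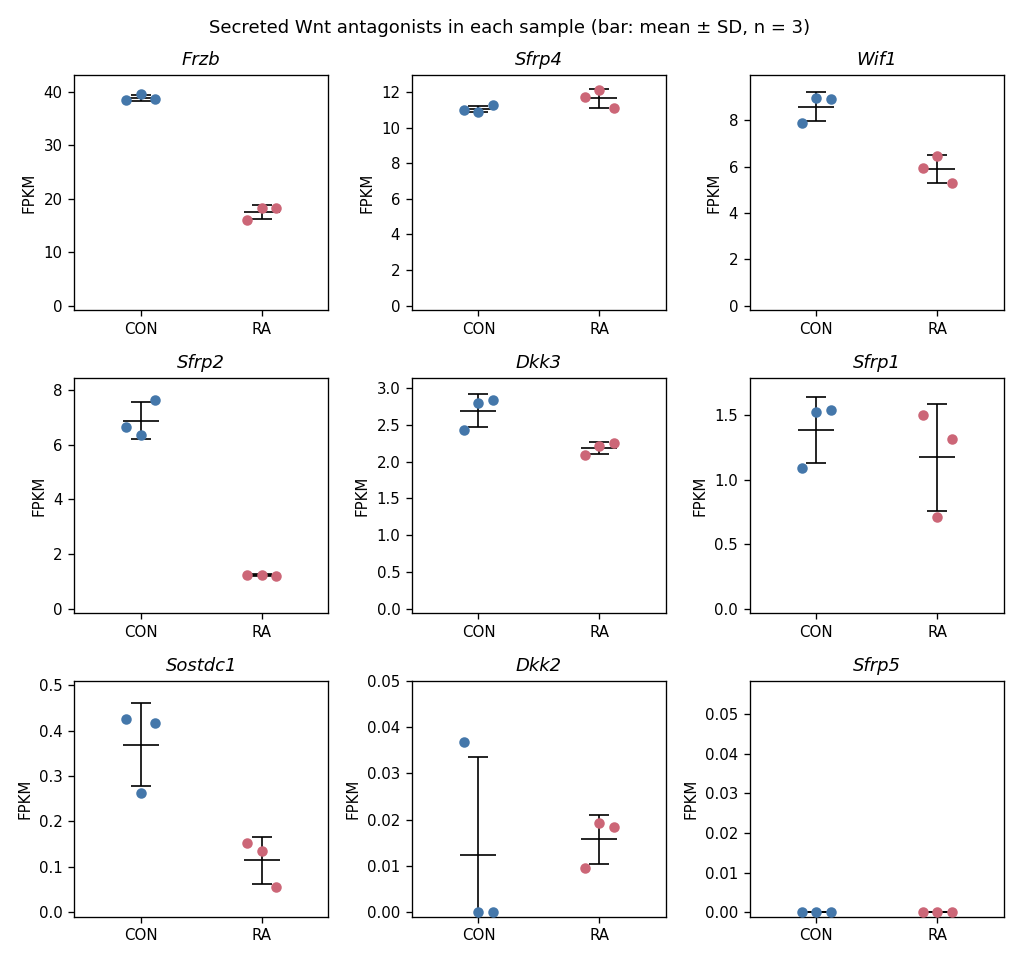
FPKM of the 9 members in each sample, points for the 3 CON and the 3 RA samples, lines for mean ± SD, each panel with its own linear axis. The groups lie apart for Sfrp2, Frzb, Sostdc1, Wif1 and Dkk3 and overlap for Sfrp4 and Sfrp1, while Dkk2 and Sfrp5 are at or near 0.

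Of the 7 members tested, 3 were DEGs (Sfrp2, Frzb and Sostdc1), all 3 lower in RA, beside 2.29% of all genes. Since the members were chosen with this comparison in view, the count is only a description. The log2 fold change was below 0 for 6 of the 7 and above 0 for Sfrp4, with a median of -0.55, against -0.0057 over all genes tested. The groups did not overlap in FPKM for 5 of the 7, each with the lower values in RA, where 13.3% of all genes tested showed that pattern, 18.9% the opposite and 32.2% either. Sostdc1 entered the test only through the CON samples, since none of its RA samples reached the filter, so that it could pass only by being higher in CON. In bulk RNA, fewer cells of a type and less RNA per cell cannot be told apart.

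Sfrp2 (ENSRNOG00000009465), a secreted frizzled-related protein of mesenchymal and perichondrial cells, showed the largest difference of the members tested. Its level was 6.63, 6.35 and 7.64 FPKM in CON samples 1, 2 and 3 and 1.25, 1.25 and 1.21 in RA samples 1, 2 and 3. The RA samples were nearly equal to each other, at counts of 87, 86 and 88, and every one lay far below every CON sample. The log2 fold change was -2.49 (SE 0.125, edgeR), so that Sfrp2 was 5.60-fold lower in RA. In CON it ranked above Dkk3, and in RA it fell below it and overlapped with Sfrp1, whose mean in RA was 1.17 ± 0.412 FPKM (SD, n = 3).

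Frzb (ENSRNOG00000007765), the frizzled-related protein first described in cartilage, was 38.5, 39.6 and 38.7 FPKM in the CON samples and 16.0, 18.2 and 18.3 in the RA samples. The groups were widely separated and the spread within CON was small. Its log2 fold change was -1.16 (SE 0.0733, edgeR), or 2.24-fold lower in RA. In FPKM, Frzb remained the most abundant member in RA, at 17.5 ± 1.32 against 11.6 ± 0.523 for Sfrp4 (SD, n = 3 each). Without CON sample 1 the log2 fold change was -1.18 for Frzb and -2.52 for Sfrp2.

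The other frizzled-related genes tested were not DEGs. Sfrp4 (ENSRNOG00000054957), known for its part in bone turnover and phosphate balance, was 10.99, 10.88 and 11.26 FPKM in CON and 11.7, 12.1 and 11.1 in RA. The groups overlapped, and the log2 fold change was 0.063 (SE 0.064, edgeR), between 0.028 and 0.095 over the fits without 1 sample. Sfrp1 (ENSRNOG00000017783), a broadly expressed relative of Sfrp2, was 1.09, 1.52 and 1.54 FPKM in CON and 1.50, 0.709 and 1.31 in RA. These groups overlapped too, with RA sample 2 far below the rest. The log2 fold change of Sfrp1 was -0.25 (SE 0.272, edgeR) and 0.0038 without that sample.

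Wif1 (ENSRNOG00000004476), the Wnt inhibitory factor, which is expressed in cartilage, was 7.87, 8.99 and 8.91 FPKM in CON and 5.93, 6.48 and 5.29 in RA. All RA samples lay below all CON samples. The log2 fold change was -0.55 (SE 0.107, edgeR), or 1.47-fold lower in RA, just inside the fold-change threshold, so Wif1 was not a DEG. Leaving out CON sample 1 (-0.62) or RA sample 2 (-0.63) made it a DEG.

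Of the genes that act mainly on the co-receptors, Sostdc1 (ENSRNOG00000005770) was the least abundant gene tested among the members. Its counts were 23, 14 and 28 in CON and 8, 7 and 3 in RA, or 0.425, 0.263 and 0.418 FPKM against 0.153, 0.135 and 0.055. The groups did not overlap, on few reads. The log2 fold change was -1.70 (SE 0.441, edgeR), and the call was lost whenever a sample was left out, at -1.60, -1.89 and -1.58 without CON samples 1, 2 and 3 and at -1.95, -1.84 and -1.36 without RA samples 1, 2 and 3. Dkk3 (ENSRNOG00000016343), a divergent dickkopf whose link to Wnt signalling is less clear than that of its relatives, was 2.43, 2.80 and 2.84 FPKM in CON and 2.09, 2.21 and 2.26 in RA. All RA samples lay below the CON samples by a small margin. Its log2 fold change was -0.31 (SE 0.105, edgeR) and it was not a DEG.

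**Figure D2:**
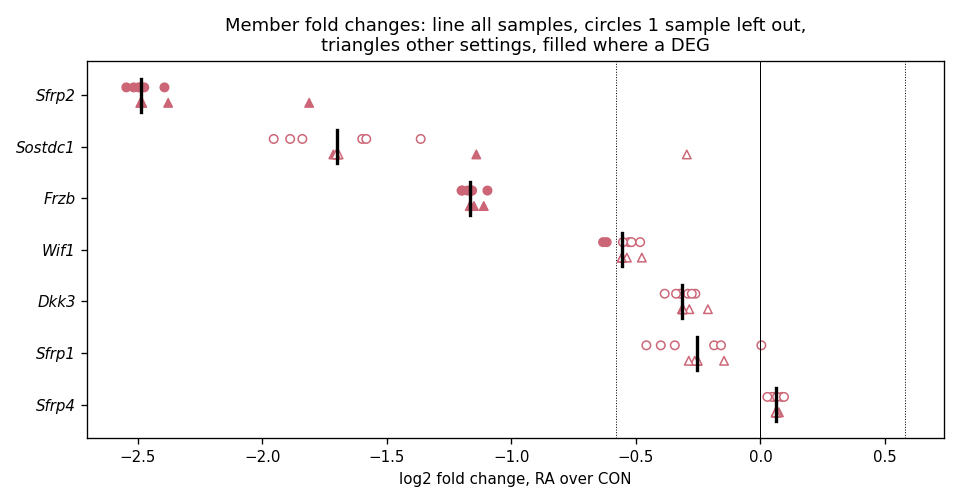
Log2 fold change, RA over CON, of the 7 members tested, with all samples (line), with 1 sample left out in turn (circles) and under other settings (triangles), filled where the gene was a DEG, dotted lines at the fold-change threshold of 0.58 on either side of 0. Sfrp2 and Frzb were DEGs throughout, Sostdc1 under some settings, and Wif1 stood next to the threshold.

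Summed over the 9 members, the level was 67.9, 70.4 and 71.3 FPKM in the CON samples and 38.6, 41.2 and 39.6 in the RA samples. Much of this difference was that of Frzb, from 38.9 to 17.5 FPKM on average. Frzb made up 55.7% ± 1.24 of the sum in CON but 44.0% ± 2.47 under RA, and Sfrp2 9.84% ± 0.844 and 3.12% ± 0.11 (SD, n = 3 each). The share of Sfrp4 was 15.8% ± 0.358 in CON but 29.3% ± 1.14 under RA (SD, n = 3 each), with its own FPKM nearly level. Wif1 made up 12.3% ± 0.618 in CON but 14.8% ± 1.28 under RA (SD, n = 3 each). These are shares of transcript level per length, not of protein.

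Genes with the most similar course were sought for the 3 members that were DEGs, as the root mean square difference in log2 CPM over the 6 samples, with each gene centred on its own mean. For Frzb they were Mest, Npr3 and Cryab, with differences of 0.0495, 0.0507 and 0.0604. Mest, an imprinted gene, averaged 763 FPKM in CON and 343 in RA, or -1.17 in log2. For Sfrp2 they were Smpd3, Art3 and Myo5b, at the wider distances of 0.188, 0.206 and 0.232. Smpd3, which encodes a neutral sphingomyelinase, stood at -2.15 in log2. For Sostdc1 they were Fgfbp1, AABR07042903.1 and Tmem35a, at 0.20, 0.247 and 0.270. These genes were picked for their course over the same samples, so their values are a description too.

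Cell type markers were read in the same comparison. Of 10 chondrocyte markers, 9 were DEGs and lower in RA, and the median log2 fold change of the 10 was -0.90. The 9 ran from Comp (-0.64) to Cnmd (-1.43) and Acan (-1.51), beside -1.16 for Frzb and -2.49 for Sfrp2. Sox9, the remaining one, had -0.49 (adjusted p = 0.00608, edgeR), short of the fold-change threshold. The summed level of the list ran from 6769 to 8917 FPKM in CON and from 4289 to 4627 in RA, and 7 to 9 of the 10 were DEGs over the fits without 1 sample, with 9 without CON sample 1. Col11a2 lost its call without CON sample 2 (-0.64) and without RA sample 1 (-0.64) or 2 (-0.71), and Comp without CON sample 3 (-0.56) or RA sample 1 (-0.57). Of 8 fibroblast and perichondrium markers, Postn alone was a DEG, lower in RA at -1.28. The median of the list was 0.17, and Pdgfra, at 0.44 (adjusted p = 0.00155, edgeR), and Twist1, at 0.43 (adjusted p = 0.00369, edgeR), were higher in RA short of the fold-change threshold, with no overlap between groups. Thy1 (0.13) and Pi16 (0.39) did not overlap either, with the higher values in RA and no adjusted p under 0.05. Dpt had -0.73 (adjusted p = 0.204, edgeR), with groups that overlapped. The sum of the list was 3742 to 4933 FPKM in CON and 4834 to 5089 in RA. Synovial lining markers summed to 6.62 to 8.15 FPKM in CON and 6.53 to 7.44 in RA, with 1 of 3 a DEG (Clic5, higher, but not without RA sample 2, at 1.49). Osteoblast markers summed to 8.25 to 9.56 and 8.27 to 8.52 FPKM, with 1 of 4 tested a DEG (Ibsp, higher). Alpl, the most abundant of them, had -0.42 (adjusted p = 0.0219, edgeR, range over alternatives 0.00294 to 0.119), lower in RA with no overlap between groups but short of the fold-change threshold. Dmp1, at counts of 2 to 4 in CON and 5 to 27 in RA, entered the test only in some fits without 1 sample. It did so through RA samples 1 and 3 alone, so that it could pass only by being higher in RA. Dmp1 was then a DEG without CON sample 1 (3.01) or RA sample 2 (2.98), but not without CON sample 2 or 3. Macrophage markers summed to 1.22 to 1.27 FPKM in CON and 1.47 to 1.58 in RA, without overlap and higher in RA. Most of this sum was Cd68, at a mean of 1.05 FPKM in CON and 1.28 in RA. Ptprc and C1qa had counts of 0 to 5, and Adgre1 of 0 or 1. Cd68 had 0.27, with no overlap between groups, and Csf1r had 0.91. Endothelial markers summed to 5.46 to 8.02 FPKM in CON and 6.18 to 6.83 in RA. Most of this was Egfl7, at 5.28 to 7.97 FPKM in CON and 6.04 to 6.73 in RA, with Cdh5 at 0 or 1 count. Of these lists, 0 of 2 tested genes of either were DEGs by edgeR and 0 were at an unadjusted p under 0.05. Skeletal muscle markers summed to 4.69 to 6.00 FPKM in CON and 6.96 to 7.74 in RA, with 1 of 2 tested a DEG (Myod1, higher, but not without CON sample 2 at 1.76, RA sample 1 at 1.80 or RA sample 2 at 1.89), and no adipocyte marker passed the filter. The counts of Myod1 were 7, 4 and 7 in CON and 25, 22 and 17 in RA, and only the RA samples reached the filter. Myod1 could therefore pass only by being higher in RA. The part of any change in cell make-up in the values of the antagonists was not tested.

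The rest of the Wnt pathway was followed in 6 lists, of extracellular antagonists outside the 10 genes, ligands with their release factors, receptors, R-spondins with their receptors, intracellular components, and feedback targets. Of 79 genes named, 69 had a row and 57 were tested. Among them 8 were DEGs, 7 higher and 1 lower in RA, or 14%, beside 4.96% of all genes, and their median log2 fold change was 0.057. Without CON sample 1 the number was 7. These lists too were chosen with earlier results of the comparison known, so their counts and adjusted p-values are a description.

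Of 7 other extracellular antagonists tested, 3 were DEGs, all 3 higher in RA, while Apcdd1, a membrane-bound Wnt inhibitor that was not a DEG, was lower in RA at -0.50 with no overlap between groups. Igfbp4 (ENSRNOG00000010635), an IGF-binding protein that can also act against Wnt receptors, was 114, 140 and 145 FPKM in CON and 279, 294 and 289 in RA. It rose by 1.10 in log2 (SE 0.0941, adjusted p = 0.000237, edgeR), and per length this gene was more abundant than Frzb in both groups. Draxin (ENSRNOG00000008911), a guidance protein that also binds LRP6, was 4.08, 5.73 and 5.68 FPKM in CON and 11.8, 12.3 and 11.3 in RA, up by 1.18 in log2 (SE 0.151, adjusted p = 0.00192, edgeR). CON and RA did not overlap for these 2 genes, which stayed DEGs in all 6 fits without 1 sample. Notum, a lipase that removes the lipid from Wnt proteins, went from 0.744 ± 0.092 to 1.28 ± 0.104 FPKM (SD, n = 3 each), at 0.77 (adjusted p = 0.0408, edgeR, range over alternatives 0.0182 to 0.149). Notum was in no fit without 1 sample a DEG, at 0.67, 0.81 and 0.84 without CON samples 1, 2 and 3 and 0.73, 0.83 and 0.75 without RA samples 1, 2 and 3. Dkk4, a dickkopf outside the 10 genes, was 6.60, 5.27 and 4.57 FPKM in CON and 5.63, 5.00 and 5.33 in RA, and was not a DEG (-0.052, adjusted p = 0.866, edgeR).

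Of 10 ligand and release genes tested, 2 were DEGs. Wnt7b averaged 0.823 ± 0.058 FPKM in CON against 2.39 ± 0.316 under RA (SD, n = 3 each), 1.52 higher in log2 (adjusted p = 0.000392, edgeR). Wnt2b rose from 0.404 ± 0.0878 to 1.48 ± 0.303 FPKM (SD, n = 3 each), or 1.86 on the log2 scale (adjusted p = 0.00303, edgeR). Both had low levels. Wnt5a, at 0.51 (adjusted p = 0.00202, edgeR, range over alternatives 1.71e-07 to 0.0202), was short of the fold-change threshold. Wls, which carries Wnt proteins to the cell surface, was the most abundant of this list and was not a DEG, at -0.12 (adjusted p = 0.301, edgeR). Of 15 receptor and co-receptor genes, only Fzd5 was a DEG, at 1.42, 2.73 and 2.86 FPKM in CON and 3.79, 4.89 and 5.54 in RA, 1.00 higher in log2 (adjusted p = 0.0496, edgeR, range over alternatives 0.00122 to 0.185). The call was lost without CON sample 2 (1.12) or without RA sample 1 (1.15), 2 (0.98) or 3 (0.87), and stood at 0.75 without CON sample 1. Short of the fold-change threshold and with groups that did not overlap, Fzd4 had -0.44 (adjusted p = 0.00479, edgeR, range over alternatives 1.16e-05 to 0.0353) and Ror1 -0.43 (adjusted p = 0.0118, edgeR, range over alternatives 0.000509 to 0.0775), both lower in RA. Ror2 had 0.50 (adjusted p = 0.0191, edgeR, range over alternatives 0.000219 to 0.0931) and was called without CON sample 3, at 0.60. Ryk, the most abundant receptor gene, had 0.046 (adjusted p = 0.71, edgeR).

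R-spondins are secreted amplifiers of Wnt signalling that act through Lgr receptors. Rspo3 was 0.964, 0.938 and 0.890 FPKM in CON and 0.351, 0.432 and 0.252 in RA. It was the only DEG of the 57 that was lower in RA, at -1.44 (SE 0.231, adjusted p = 0.0058, edgeR), and stayed one in all 6 fits without 1 sample. Lgr4, the most abundant of its list, had 0.0021 (adjusted p = 0.987, edgeR).

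Of 8 feedback targets tested, genes that canonical Wnt signalling commonly raises, 2 were DEGs, both higher in RA. Axin2 (ENSRNOG00000055010), which acts in the destruction of β-catenin, was 1.76, 1.60 and 1.56 FPKM in CON and 4.10, 3.91 and 4.03 in RA. Every RA sample lay far above every CON sample, 1.28 higher in log2 (SE 0.0983, adjusted p = 0.000142, edgeR), between 1.25 and 1.33 over the fits without 1 sample. The other was Notum, which is also counted among the antagonists and was a DEG in no fit without 1 sample. Nkd1, a further feedback inhibitor, had the opposite sign, at -0.57 (adjusted p = 0.00732, edgeR), and Apcdd1 had -0.50 (adjusted p = 0.0487, edgeR, range over alternatives 0.0108 to 0.189), neither of them a DEG with all samples. Nkd1 was called without CON sample 2 or RA sample 1, at -0.63 in both fits. Lef1, the most abundant of the list, was not a DEG either, at -0.18 (adjusted p = 0.316, edgeR). The median over these 8 genes was 0.054, with 4 on either side of 0.

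None of the 14 intracellular genes was a DEG by edgeR, their log2 fold changes lay between -0.17 and 0.38, and 1 (Dvl1) had an unadjusted p under 0.05. In none of the 12 other fits, DESeq2 and limma among them, was any of the 14 a DEG. Ctnnb1, the gene of β-catenin and the most abundant of them, was 189 ± 19.9 FPKM in CON against 208 ± 4.45 under RA (SD, n = 3 each), at 0.13 (adjusted p = 0.393, edgeR).

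**Figure D3:**
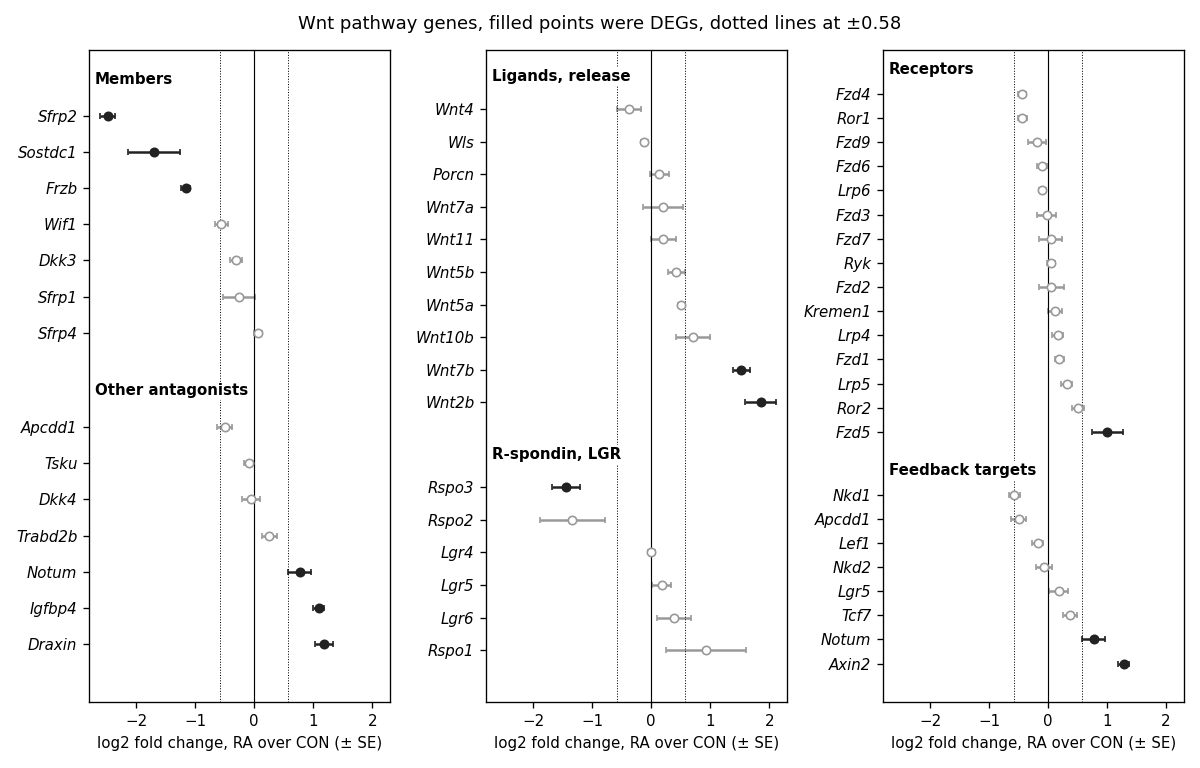
Log2 fold change, RA over CON, with its SE, of the members and of 5 of the other Wnt lists, black points for DEGs and open grey points for the other genes tested. The DEGs on the lower side are Sfrp2, Sostdc1, Frzb and Rspo3, and those on the higher side are Draxin, Igfbp4, Notum, Wnt2b, Wnt7b, Fzd5 and Axin2, where Notum, Apcdd1 and Lgr5 are drawn in both of their lists.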

How the data were processed

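Poly(A) RNA of 3 CON and 3 RA samples was sequenced on an Illumina instrument, and samples were grouped by their titles. The authors deposited for each sample a whole-number count of reads per gene and an FPKM value, which divides that count by gene length and sample total. The submitters' processing notes name HISAT2, HTSeq 0.13.5 and Rnor_6.0. Whether counting used strand is not given in the sources used here. Counts were tested with edgeR 4.0.16 in R 4.3.3 (TMM, filterByExpr with a minimum count of 10, glmQLFit and glmQLFTest, no covariates), with Benjamini-Hochberg adjustment over 13438 genes, and the code was tested on simulated data. Standard errors came from the F statistic. Where identifiers share a symbol, the one with the higher mean count was used. The members and lists were chosen with earlier results of these data known. Named genes were the members, the DEGs and the most abundant tested gene of each other Wnt list, the 3 genes most similar to each member that was a DEG, and Cyp26a1 and Rarb. Other genes (Dkk4, Nkd1, Apcdd1, Dvl1, Wnt5a, Fzd4, Ror1, Ror2 and the markers named) were chosen after their values were seen. Promoters came from RefSeq GRCr8, in which 5 of the 10 members had an entry. Alternatives were DESeq2 1.42.0, limma 3.58.1 on log2 FPKM, RLE size factors, no filter, no fold-change threshold, a replicate block and each sample left out.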

Additional observations from a re-analysis of the deposited data

How the results depend on the processing

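Sfrp2, Frzb, Axin2, Draxin, Igfbp4, Wnt2b and Wnt7b stayed DEGs in all 12 alternative fits, which were 6 without 1 sample each and 6 with another tool, scaling, filter, unit or block. With limma on log2(FPKM + 1), which damps low genes, 434 genes were DEGs in place of 667, among them 5 of the Wnt list genes in place of 8. Without the fold-change threshold the numbers were 1319 and 14, and 4 members were called, Wif1 included, beside 9.82% of all genes. Leaving out each sample in turn gave 480 to 755 DEGs (3.53% to 5.54% of genes tested), 6 to 8 Wnt list genes and 2 or 3 members. Sfrp1 then lay between -0.46 and 0.0038, above 0 without RA sample 2. Sostdc1 was called in 3 of the 12 fits and stood at -0.30 with limma on log2(FPKM + 1), where 2 members were called, as without the filter on low counts. Without CON sample 1 or RA sample 2 the 3 members called were Sfrp2, Frzb and Wif1. Of the other genes, Notum was called in 3, Fzd5 in 6 and Rspo3 in 11.

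Replicate numbers did not pair the samples. The correlations of the deviations of same-numbered samples from their group means were 0.0805, -0.0119 and 0.00729. With the replicate block, 684 genes (5.09%), 2 members and 7 Wnt list genes were DEGs. CON sample 1 correlated best with the RA sample of its own number, and CON samples 2 and 3 did not.

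Dkk2, Sfrp5 and Sostdc1 had counts of 0 to 28 per sample, and at these counts low expression and absence cannot be told apart for Dkk2 and Sfrp5.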
